A study of Mus musculus with 11 samples.

Results

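The arrays were used to ask how far the effect of a hairpin against Ror2 on transcript levels differed between the basal and the luminal cells of the mouse mammary epithelium. The quantity described is an interaction, the shROR2 minus shLUC difference in basal cells minus the shROR2 minus shLUC difference in luminal cells, on the log2 scale. It was formed from all 11 arrays of 11, grouped by their titles: 3 of luminal shLUC, 2 of luminal shROR2, 3 of basal shLUC and 3 of basal shROR2. An interaction above 0 means that the shROR2 level stood higher, relative to its own control, in basal than in luminal cells.

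Every group started from primary mouse mammary epithelial cells that were infected overnight with a lentivirus and suspended in matrigel for injection. The tissue that grew from them, called an outgrowth, expressed a hairpin that is named shROR2 and directed at Ror2, or the control hairpin shLUC, by its name directed at luciferase. Luminal and basal cells were sorted from the outgrowths by CD24 and CD29, and their RNA was amplified before labelling. How many infected cells founded each outgrowth was not measured here, so the clonal make-up of a sample is not known. The labels used here name no hairpin sequence, promoter, mark of infected cells, strain, age or host, and they do not say which samples share an outgrowth. The labels speak of biological triplicates, and 2 samples of luminal shROR2 were used.

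The mammary duct is a bilayer. Its inner luminal cells line the lumen and can make milk, while its outer basal cells are mostly myoepithelial, attach to the basement membrane and contract. Ror2 is a receptor tyrosine kinase that binds Wnt ligands such as Wnt5a and signals mainly outside the β-catenin route, through the cytoskeleton and cell polarity. The study's stated purpose was to look for functions of Ror2 particular to each layer.

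The sorted cells carried the markers of their labels. The summed signal of the 22 myoepithelial markers, in units of each array's 75th percentile, was 165 to 173 in luminal shLUC and 2370 to 2670 in basal shLUC. That of the 20 general luminal markers was 557 to 579 in luminal shLUC and 104 to 105 in basal shLUC. Correlations within a group were 0.941 to 0.953 in basal shROR2 and 0.976 to 0.983 in the other groups. The median SD of bright features was 0.309 in basal shROR2 and 0.129 to 0.166 in the other groups, so the arrays of basal shROR2 set much of the error of the interaction. On each array 52.8% to 59.5% of the probes were well above background. The arrays came from 2 slides, and every group had arrays on both.

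Ror2 itself gave no usable interaction. Its only probe was well above background on 1 of the 11 arrays, the one labelled basal shROR2 replicate 1. The processed signals were 3.14, 3.44 and 3.48 with shLUC and 3.54 and 8.47 with shROR2 in luminal cells, and 11.1, 12.1 and 10.1 with shLUC and 16.8, 3.03 and 6.93 with shROR2 in basal cells. The basal shROR2 arrays lay on either side of their controls, and 1 of the luminal shROR2 arrays lay close to its controls. On the scaled log2 values the interaction was -1.24, with a 2-sided exact permutation p = 0.22 over 200 regroupings within the layers, of which 0.005 is the smallest p they can give. The authors' deposited values gave -0.12 (exact permutation p = 0.39). The targeted transcript thus provides no check of the hairpin labels in either layer.

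No feature of 29430 tested had a hairpin effect that differed between the layers at an adjusted p under 0.05 (0 called, 0%, limma with Benjamini-Hochberg adjustment over all features), so every interaction below is a measured value that did not pass. The smallest adjusted p was 0.0563. At an unadjusted p under 0.05 stood 2444 features (8.3%), where 1472 are the number such a threshold gives by itself. Of these 2444, 854 had a higher interaction (2.9% of all) and 1590 a lower one (5.4%). With arrays scaled to their median in place of their 75th percentile this split was 1086 to 1187. The adjusted p was under 0.1 for 10 features, 8 of them named genes, and 7 of the 10 were not well above background in some group. With limma's variance trend 22 features were called. Leaving out 1 array called 2 without basal shLUC replicate 1, 1 each without basal shLUC replicate 2 or 3 or basal shROR2 replicate 1, and 8 without basal shROR2 replicate 3. Without basal shROR2 replicate 2 none was called. The number under an unadjusted 0.05 also depended on the array left out. Among fits that kept at least 2 arrays in every group, it was lowest at 1876 (6.37%), without luminal shLUC replicate 1. It was highest at 3669 (12.5%), without basal shROR2 replicate 2.

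The median standard error of the interaction was 0.34 log2 units, against 0.23 for the basal and 0.26 for the luminal difference alone. The median 95% confidence interval reached 0.69 on either side among the 25291 features bright in every group. For 12874 features (43.7%) the whole interval lay within 1 log2 unit of 0, and for the rest it reached beyond a doubling in at least 1 direction. Among 12355 named genes bright in every group these were 6277 (50.8%).

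Taken alone, the basal hairpin difference called 279 features (0.948%), 110 higher and 169 lower, and the luminal one called 1 (0.0034%). Both tests use 1 spread per feature, pooled over the 4 groups. The wider spread of basal shROR2 thus also enters the luminal standard errors, and the tighter groups enter the basal ones. Both counts depend on this pooling. The basal count depended strongly on the setting. It was 128 with the slide as a block, 37 with a replicate block and 32 with array weights. With 1 array left out it ran from 21, without basal shLUC replicate 1, to 878, without basal shROR2 replicate 1. The basal adjusted p given for single genes below come from the main fit. None of the 279 had a called interaction, while 219 had an unadjusted interaction p under 0.05, a test that uses the same basal arrays that chose them. The luminal difference pointed the same way for 203 of the 279 (72.8%), against 54.1% of all features. It did so for 93 of the 110 that rose in basal cells and for 110 of the 169 that fell. Signed by the basal direction, their median difference was 1.07 in basal and 0.22 in luminal cells. In 50 of the 279 the luminal difference was at least as large as 50% of the basal one and of the same sign. A call in basal cells beside none in luminal cells thus did not amount to a difference between the layers that passed the test. Over all features the basal and luminal differences correlated at r = 0.11 (Spearman 0.11), a description across features, which share arrays and are not independent.

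The 20 named genes of smallest interaction p that were bright in every group, 10 in each direction, followed several patterns. The larger difference was the basal one in 7 (5 higher, 2 lower) and the luminal one in 8 (1 higher, 7 lower), by a factor of at least 2. In the other 5 the differences had opposite signs and neither was that much larger. In all 20 the deviations of the basal shROR2 arrays from their controls did not overlap those of the luminal shROR2 arrays, which holds for 9180 features (31.2%). In 14 every basal array deviated one way and every luminal array the other, as in 3200 features (10.9%). All 20 had the same sign on both slides. Since these genes were ranked by the values of the same arrays, none of this agreement is separate support.

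**Figure D1:**
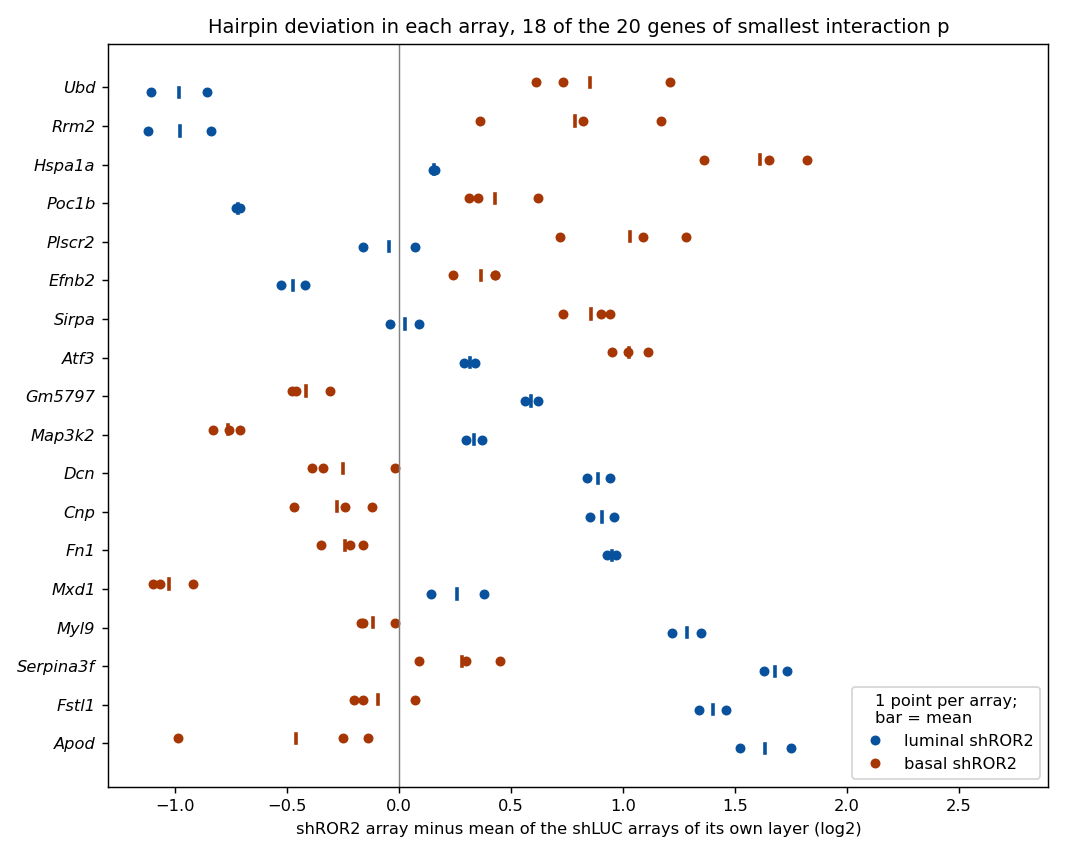
Deviation of each shROR2 array from the mean of the shLUC arrays of its own layer (horizontal axis, log2) for 18 of the 20 named genes of smallest interaction p, with 3 basal points, 2 luminal points and a bar at each mean. For the genes at the top the basal points lie to the right of the luminal ones, and for those at the bottom to the left. The luminal points of Fstl1, Myl9, Serpina3f and Apod lie above 1.2, while their basal points lie at 0.45 or below.

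Some of the 20 leading genes stood above control with shROR2 in luminal cells and near control in basal cells, among them Myl9, which encodes the regulatory light chain of smooth muscle myosin. It lay at -0.63, -0.96 and -0.89 with shLUC and 0.52 and 0.39 with shROR2 in luminal cells, and 6.66, 6.43 and 6.63 with shLUC and 6.41, 6.55 and 6.41 with shROR2 in basal cells (log2 signal relative to the 75th percentile). Both luminal shROR2 arrays stood above all luminal controls, and the basal groups overlapped. The luminal difference was 1.28 ± 0.14 (SE) and the basal one -0.12 ± 0.13, which gave an interaction of -1.40 ± 0.19 (limma, adjusted p = 0.12, n = 11 arrays), with -1.39 and -1.19 within the slides. The distance of Myl9 between basal and luminal cells was 7.4 in shLUC and 6.0 in shROR2. In RNA from a sorted population, a different number of cells of some type and a different amount of RNA per cell cannot be told apart.

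Acta2, smooth muscle actin, followed Myl9. Its values were 0.94, 0.72 and 0.61 with shLUC and 1.54 and 1.74 with shROR2 in luminal cells, and 9.01, 8.82 and 9.09 with shLUC and 8.80, 8.81 and 8.89 with shROR2 in basal cells. The luminal arrays did not overlap, while the lowest basal control lay among the basal shROR2 values. The interaction of Acta2 was -1.02 ± 0.19 (adjusted p = 0.238), from 0.88 in luminal and -0.14 in basal cells. Tpm2, a tropomyosin, had -0.85 ± 0.21 (adjusted p = 0.35), made of 0.36 in luminal and -0.49 in basal cells.

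**Figure D2:**
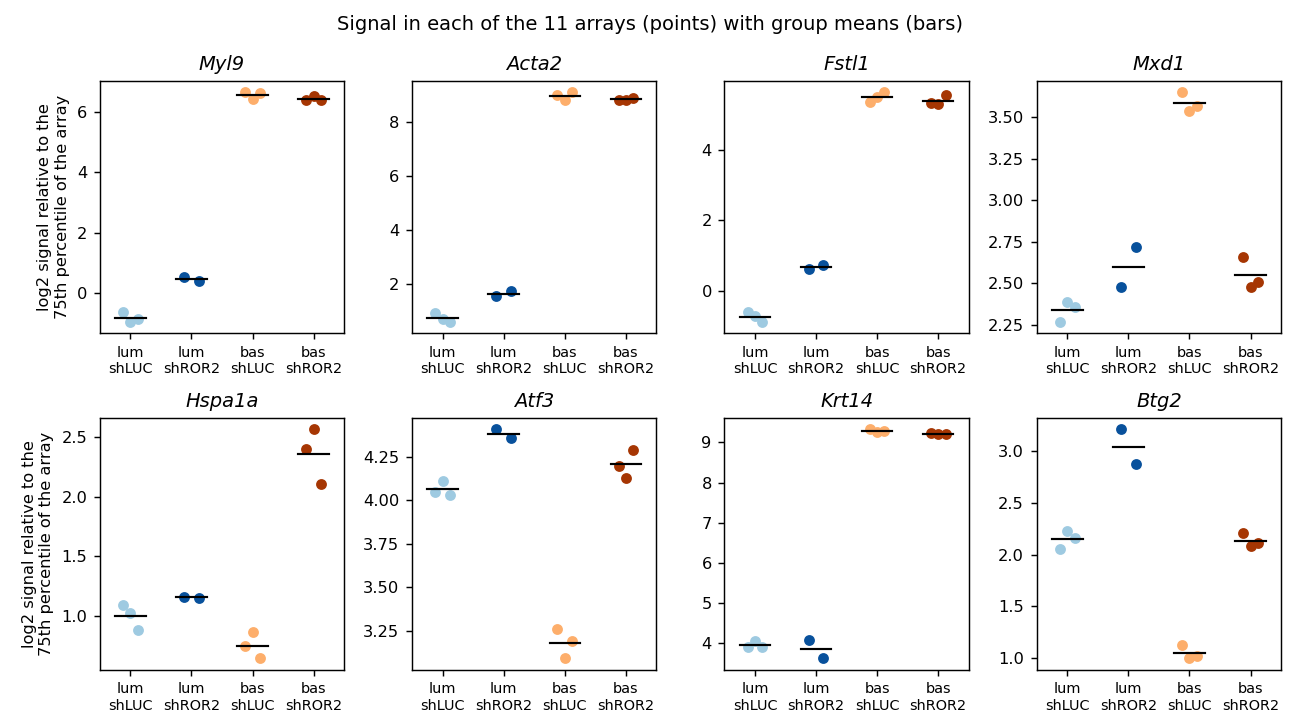
Log2 signal relative to each array's 75th percentile (vertical axis, a separate scale per panel) of 8 genes in the control (shLUC) and shROR2 groups of luminal (lum) and basal (bas) cells, with 1 point per array and a bar at the group mean. Myl9, Acta2 and Fstl1 differ between the luminal groups and hardly between the basal ones, Mxd1, Hspa1a and Atf3 differ mainly between the basal groups, Krt14 between neither, and Btg2 by a like amount in both.

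SRF, a transcription factor that responds to the state of actin, drives Myl9, Acta2 and many other contractile genes through a DNA element known as the CArG box. Of 19 measured SRF targets 18 had an interaction below 0, 8 of them with an unadjusted p under 0.05 and none called, and the median was -0.38. Over all 14069 named genes 8271 lay below 0, 939 of them with an unadjusted p under 0.05, and the median was -0.09. Above 0 lay 5798, 400 of them at such a p. These numbers are the background for the counts of every list below. The median of the list was 0.14 in luminal and -0.15 in basal cells, and its interaction was -0.52 and -0.27 within the slides. The promoter of Myl9 is shown because it belongs to the leading gene of this list and holds the element. It spans the 250 bases before the gene's start in RefSeq, at chr2:156775214-156775463 of GRCm38.p6 on the + strand, and capitals mark the CArG box, 161 to 152 bases before the start.
Myl9: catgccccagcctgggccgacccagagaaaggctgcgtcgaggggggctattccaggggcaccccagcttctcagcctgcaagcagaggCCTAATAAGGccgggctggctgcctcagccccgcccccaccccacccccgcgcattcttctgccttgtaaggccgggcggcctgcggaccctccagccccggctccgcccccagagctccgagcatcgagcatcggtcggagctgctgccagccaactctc
Such a match, sought on both strands, was present in 9 of 20 promoters found for 17 of the SRF targets, and in 482 of all 32851 promoters (1.47%). The list is defined by the factor, so its motif count describes the list. Of 14 promoters found for 13 of the 20 leading genes 1 held it.

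Myoepithelial markers had mostly lower interactions. The list is not separate from its neighbours. It shares Acta2, Myl9, Cnn1, Mylk, Tagln and Tpm2 with the SRF targets, and Itga6, Itgb1 and Itgb4 with the basement membrane and integrin list. Of 22 markers 19 had an interaction below 0, 12 with an unadjusted p under 0.05 and none called, and the median was -0.42 (-0.55 and -0.50 within the slides), from -0.19 in basal and 0.17 in luminal cells. Sparc, a matrix glycoprotein, had -0.71 ± 0.17 (adjusted p = 0.35). Snai2, a repressor that marks basal cells, was not well above background in luminal shLUC, at -4.32, -3.96 and -4.11, and was so on both luminal shROR2 arrays, at -2.84 and -2.60. It was at least 1.34-fold higher in luminal shROR2, where the bound takes for the dim group the lowest signal that counted as well above background on its arrays. Snai2 stood at 4.48, 4.52 and 4.33 with shLUC and 4.15, 4.37 and 4.15 with shROR2 in basal cells, and its interaction had an adjusted p of 0.0937.

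Krt14, the keratin that defines basal cells, showed little difference in either layer. Its values were 3.89, 4.05 and 3.89 with shLUC and 4.08 and 3.62 with shROR2 in luminal cells, and 9.33, 9.25 and 9.28 with shLUC and 9.23, 9.20 and 9.21 with shROR2 in basal cells. The luminal shROR2 values lay on either side of their controls. The interaction was 0.01, with a 95% confidence interval of -0.43 to 0.45, at or below 0 in 6 alternative settings and at -0.29 and 0.30 within the slides. Krt5, another basal keratin, had -0.40 (-0.87 to 0.07), near the median of the list, with -0.32 in basal and 0.08 in luminal cells, and a further probe of it gave -0.74. The summed signal of the myoepithelial markers, set mostly by the brightest of them, was 165 to 173 in luminal shLUC and 174 to 182 in luminal shROR2. In the basal groups it was 2370 to 2670 and 2220 to 2330. Their mean log2 level was 0.37, 0.32 and 0.29, then 0.70 and 0.65 in the luminal groups. In the basal groups it was 5.49, 5.43 and 5.54, then 5.19, 5.36 and 5.23. Cdh3 and Id4 were not well above background on any luminal array. Beyond these values, the part of basal cells carried into the luminal sort was not tested.

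Basement membrane genes and integrins, through which basal cells hold the matrix, shared 1 direction. Of 31 members 29 lay below 0, 10 with an unadjusted p under 0.05 and none called, and the median was -0.44 (-0.49 and -0.28 within the slides). Of all 14069 named genes 8271 lay below 0, 939 of them at such a p. The median difference was -0.21 in basal and 0.24 in luminal cells. Col7a1, the collagen of anchoring fibrils, had -0.55 ± 0.15 (adjusted p = 0.417), from 0.33 in luminal and -0.22 in basal cells. Itga9, an integrin subunit, was not well above background in luminal shLUC and was so on 1 luminal shROR2 array, at least 1.48-fold higher.

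Fstl1, Fn1 and Dcn, secreted proteins that fibroblasts also make, were among the 10 bright genes of smallest p with a lower interaction. Fstl1, a follistatin-like glycoprotein, lay at -0.60, -0.71 and -0.86 with shLUC and 0.62 and 0.74 with shROR2 in luminal cells, and 5.36, 5.48 and 5.62 with shLUC and 5.32, 5.29 and 5.55 with shROR2 in basal cells. The luminal arrays were more than 1 log2 unit apart and the basal arrays overlapped. Its interaction was -1.50 ± 0.19 (adjusted p = 0.0937), from 1.40 in luminal and -0.10 in basal cells, and the basal to luminal distance was 6.21 in shLUC and 4.71 in shROR2. Within the slides it was -1.27 and -1.72.

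Fn1, fibronectin, stood at 1.15, 1.03 and 0.93 with shLUC and 1.96 and 2.01 with shROR2 in luminal cells, and 2.91, 3.31 and 3.06 with shLUC and 2.93, 2.87 and 2.75 with shROR2 in basal cells. Its interaction was -1.19 ± 0.19 (adjusted p = 0.188). For Dcn, the proteoglycan decorin, the values were 1.82, 1.95 and 1.86, then 2.72 and 2.82 in the luminal groups, and 3.57, 3.46 and 3.34, then 3.44, 3.06 and 3.12 in the basal groups, for an interaction of -1.14 ± 0.19 (0.217). In both genes the luminal groups stood apart and the basal groups overlapped.

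The fibroblast list as a whole had a median interaction of -0.45 (-0.35 and -0.40 within the slides), with 16 of 22 members below 0, 5 of them and 1 of the 6 above 0 at an unadjusted p under 0.05, and none called. It was higher in shROR2 in both layers, with a median difference of 0.61 in luminal and 0.21 in basal cells. Postn, the matrix protein periostin, was at background on every luminal array and lay at 2.67, 2.32 and 2.50 with shLUC and 1.66, 1.76 and 1.67 with shROR2 in basal cells (interaction adjusted p = 0.266). The summed signal of the list was 66.5 to 72.2 in luminal shLUC and 70.5 to 72.8 in luminal shROR2, and 196 to 211 and 195 to 222 in the basal groups. Of the 22 members 17 were bright in every group, and Lum, Pdgfra, Pdgfrb, Postn and Lox were not well above background on any luminal array. The luminal difference was above 0 in 17 of the 22 members and below 0 in 5, beside a median of 0.02 over all named genes. Among those above 0 were Col6a1 at 0.91, Col3a1 at 0.79 and Col1a1 at 0.35, collagen genes, and Thy1, a surface marker, at 1.18. None of these was called, and all were named after their values were seen. The part of fibroblast RNA was not tested.

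Several other genes were led by the luminal layer. Apod, a lipid-carrying apolipoprotein, had the largest of the 10 leading lower interactions, -2.09 ± 0.36 (adjusted p = 0.222). Its values were 3.46, 3.64 and 3.93 with shLUC and 5.20 and 5.43 with shROR2 in luminal cells, and 4.61, 4.66 and 4.99 with shLUC and 3.76, 4.51 and 4.61 with shROR2 in basal cells. With shLUC Apod was higher in basal cells by 1.07, and with shROR2 it was higher in luminal cells, the distance being -1.02. Cnp, a phosphodiesterase of cyclic nucleotides, had -1.18 ± 0.21 (0.227), with 0.90 in luminal and -0.28 in basal cells. Igfbp5, which binds insulin-like growth factors, had -0.61 ± 0.15 (0.347), with 0.67 in luminal and 0.06 in basal cells.

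Serpina3f, a serine protease inhibitor and the single gene called in luminal cells, also had a lower interaction. It lay at -1.69, -1.77 and -1.52 with shLUC and 0.07 and -0.03 with shROR2 in luminal cells, and 2.71, 2.56 and 2.74 with shLUC and 2.76, 3.12 and 2.97 with shROR2 in basal cells. It rose in luminal cells by 1.68 ± 0.14 (limma, adjusted p = 0.0324) and stood 0.28 higher in basal cells. The interaction was -1.41 ± 0.19 (0.12), and a further probe of the gene gave -0.41. The gene belongs to a family of near-identical copies, so its probes may read several members.

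Mxd1 and Map3k2 had lower interactions that came mostly from the basal layer. Mxd1, a repressor of the MAX transcription factor network, lay at 2.27, 2.39 and 2.36 with shLUC and 2.48 and 2.72 with shROR2 in luminal cells, and 3.65, 3.54 and 3.57 with shLUC and 2.66, 2.48 and 2.51 with shROR2 in basal cells. It fell in basal cells to the level of the luminal groups, by 1.03 on the log2 scale (adjusted p = 0.01), and stood 0.26 higher in luminal cells. The interaction was -1.29 ± 0.16 (0.0937), but a further probe of Mxd1 gave 0.51, in the opposite direction.

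Map3k2, a kinase upstream of MAP kinases, fell in basal cells by 0.77 on the log2 scale (adjusted p = 0.022) and stood 0.33 higher in luminal cells. Its interaction was -1.10 ± 0.16 (0.128), and a further probe gave -0.71. Gm5797, a predicted gene, had -1.01 ± 0.17 (0.195), with 0.59 in luminal and -0.42 in basal cells.

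Among genes bright in every group and with a higher interaction, Hspa1a had the smallest p. It encodes an inducible heat shock protein that refolds damaged proteins. Its values were 1.09, 1.02 and 0.88 with shLUC and 1.16 and 1.15 with shROR2 in luminal cells, and 0.74, 0.86 and 0.64 with shLUC and 2.40, 2.57 and 2.11 with shROR2 in basal cells. All 3 basal shROR2 arrays stood far above every other array. Hspa1a rose in basal cells by 1.61 ± 0.14 (adjusted p = 0.00493) and stood 0.16 higher in luminal cells, an interaction of 1.45 ± 0.21 (0.123), with 1.49 and 1.50 within the slides. Its near-identical copy Hspa1b may be read by the same probe.

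The promoter of Hspa1a is shown because this gene had the smallest p among bright genes with a higher interaction and its class of genes is known for a shared element, bound by heat shock factor. The 250 bases before its start in RefSeq lie at chr17:34972157-34972406 of GRCm38.p6 on the - strand. Capitals mark a match to the heat shock element GAANNTTC, 104 to 97 bases before the start.
Hspa1a: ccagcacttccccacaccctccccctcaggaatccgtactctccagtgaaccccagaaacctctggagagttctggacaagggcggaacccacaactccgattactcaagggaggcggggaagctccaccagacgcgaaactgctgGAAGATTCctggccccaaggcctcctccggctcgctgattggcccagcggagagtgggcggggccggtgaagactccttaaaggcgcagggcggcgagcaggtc
The same letters, sought on both strands, were present in 7 of 24 promoters found for 17 heat shock chaperone genes, in 3 of the 14 promoters of the leading genes and in 2199 of all 32851 promoters (6.69%). The other chaperone genes did not share the pattern of Hspa1a. Of 20 members 12 lay below 0 and 8 above, 1 with an unadjusted p under 0.05, and the median interaction was -0.03, with 0.11 in basal and 0.16 in luminal cells.

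Immediate early genes, which cells switch on within minutes of a stimulus, stood higher with shROR2 mainly in basal cells. Of 34 members 28 had an interaction above 0, 8 with an unadjusted p under 0.05 and none called. The median interaction was 0.25 (0.08 and 0.38 within the slides), from 0.40 in basal and 0.08 in luminal cells. Over all 14069 named genes 5798 lay above 0, 400 of them with an unadjusted p under 0.05. Atf3, a stress-induced transcription factor, lay at 4.05, 4.11 and 4.03 with shLUC and 4.41 and 4.36 with shROR2 in luminal cells, and 3.26, 3.09 and 3.19 with shLUC and 4.20, 4.13 and 4.29 with shROR2 in basal cells. Both layers were higher with shROR2 and the basal arrays moved further, so that the basal to luminal distance was -0.88 in shLUC and -0.18 in shROR2. It rose in basal cells by 1.03 (adjusted p = 0.00803), and its interaction was 0.71 ± 0.15 (0.266).

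Fosb, a subunit of the AP-1 factor, gave the same picture at a higher signal. It lay at 7.93, 7.98 and 7.95, then 8.36 and 8.26 in the luminal groups, and at 7.44, 7.34 and 7.38, then 8.21, 8.29 and 8.22 in the basal groups. Its groups did not overlap in either layer, and the interaction was 0.50 ± 0.14 (adjusted p = 0.415). Gadd45b, induced by stress, had 0.77 ± 0.24 (0.456).

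Genes of DNA replication and the cell cycle had mostly higher interactions, with lower shROR2 values in luminal cells and mixed ones in basal cells. Of 36 members 30 had an interaction above 0, 4 with an unadjusted p under 0.05 and none called. The median was 0.25 (0.17 and 0.37 within the slides), from 0.18 in basal and -0.22 in luminal cells. The luminal difference was below 0 in 31 members, and the basal one above 0 in 22 and below 0 in 14. Over all named genes the median difference was 0.02 in luminal and -0.07 in basal cells, and their share below 0 in a single layer was not counted. The mean log2 level of the list was -0.67, -0.69 and -1.02 in basal shROR2 against -0.90, -0.94 and -1.01 in its controls, so 1 basal shROR2 array did not stand above them. Rrm2, a subunit of ribonucleotide reductase, lay at -0.28, -0.06 and -0.61 with shLUC and -1.16 and -1.43 with shROR2 in luminal cells, and -1.13, -0.97 and -0.85 with shLUC and -0.16, 0.19 and -0.63 with shROR2 in basal cells. Both luminal shROR2 arrays were below, and all 3 basal shROR2 arrays above, their own controls. Its interaction was 1.76 ± 0.34 (adjusted p = 0.245). Mcm5, a subunit of the replicative helicase, had 0.56 ± 0.23 (0.584).

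Orc1, of the origin recognition complex, was dim. It was well above background on 2 luminal shLUC and 2 basal shROR2 arrays, and on none of luminal shROR2 or basal shLUC. It was at least 1.31-fold lower in luminal shROR2 and at least 1.42-fold higher in basal shROR2 than in their controls, with an interaction adjusted p of 0.095. Ccnd1, a cyclin of the entry into the cycle and here on the list of Wnt targets, went the other way. It had -0.91 ± 0.22 (0.343), with 0.39 in luminal and -0.53 in basal cells.

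Other genes with a higher interaction were of mixed function. Ubd, a ubiquitin-like modifier, lay at -1.26, -0.67 and -1.08 with shLUC and -2.11 and -1.86 with shROR2 in luminal cells, and -3.34, -3.33 and -3.20 with shLUC and -2.68, -2.08 and -2.56 with shROR2 in basal cells, an interaction of 1.83 ± 0.30 (adjusted p = 0.188). The arrays of each layer stood apart, in opposite directions. Poc1b, a centriole protein, and Efnb2, an ephrin ligand, were likewise lower with shROR2 in luminal and higher in basal cells. Their interactions were 1.15 ± 0.21 and 0.84 ± 0.16 (adjusted p = 0.227 and 0.245), and a further probe of Efnb2 gave 1.08.

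Sirpa, an inhibitory receptor, and Plscr2, a phospholipid scramblase, differed mainly in basal cells. They rose there by 0.85 and 1.03 (adjusted p = 0.0156 and 0.0263) and stood at 0.03 and -0.05 in luminal cells. The interaction of Sirpa was 0.83 ± 0.16 (0.245) and that of Plscr2 1.07 ± 0.23 (0.266).

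Leukocyte and endothelial transcripts stood higher with shROR2 in both layers, and more so in the basal sort. Of 23 leukocyte transcripts 18 had an interaction above 0, 8 with an unadjusted p under 0.05, and the median was 0.37 (0.46 and 0.53 within the slides), from 1.06 in basal and 0.58 in luminal cells. Cd74, the invariant chain of MHC class II, had 0.70 ± 0.20 (adjusted p = 0.424). Its rise in basal cells was 1.27 (0.00967), and it stood 0.57 higher in luminal cells. The summed leukocyte signal was 443 to 519 in basal shLUC and 571 to 578 in basal shROR2, and 530 to 558 and 569 to 594 in the luminal groups. Cd53 and Itgax, leukocyte genes, were not well above background on any basal shLUC array and were so on at least 1 basal shROR2 array.

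Of 22 endothelial transcripts 17 lay above 0, 3 with an unadjusted p under 0.05, and the median interaction was 0.28 (0.34 and 0.62 within the slides), from 0.93 in basal and 0.50 in luminal cells. Only 13 of the 22 were bright in every group. In luminal shLUC 5 were not well above background on any array, and in luminal shROR2 8 were not. The luminal median and the interaction thus rest in part on background. Mmrn1, multimerin of endothelium and platelets, was at -4.78, -5.49 and -5.24 in basal shLUC, not well above background, and at -2.07, -2.47 and -1.83 in basal shROR2. It was at least 2.61-fold higher in basal shROR2 and at background in both luminal groups (interaction adjusted p = 0.0718). The summed endothelial signal was 31.2 to 39.8 in basal shLUC and 62.3 to 73.0 in basal shROR2, and 15.7 to 15.9 and 20.5 to 21.8 in the luminal groups. Adipocyte transcripts had a median interaction of 0.08, 9 of 11 above 0, and summed signals of 31.9 to 34.3 and 58.3 to 71.0 in the basal groups and 11.7 to 13.7 and 19.0 to 21.2 in the luminal groups. In basal cells these lists stood higher with shROR2, as did the inflammatory (median 0.30) and immediate early (0.40) lists but not the interferon list (0.02). Their part in those values was not tested.

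**Figure D3:**
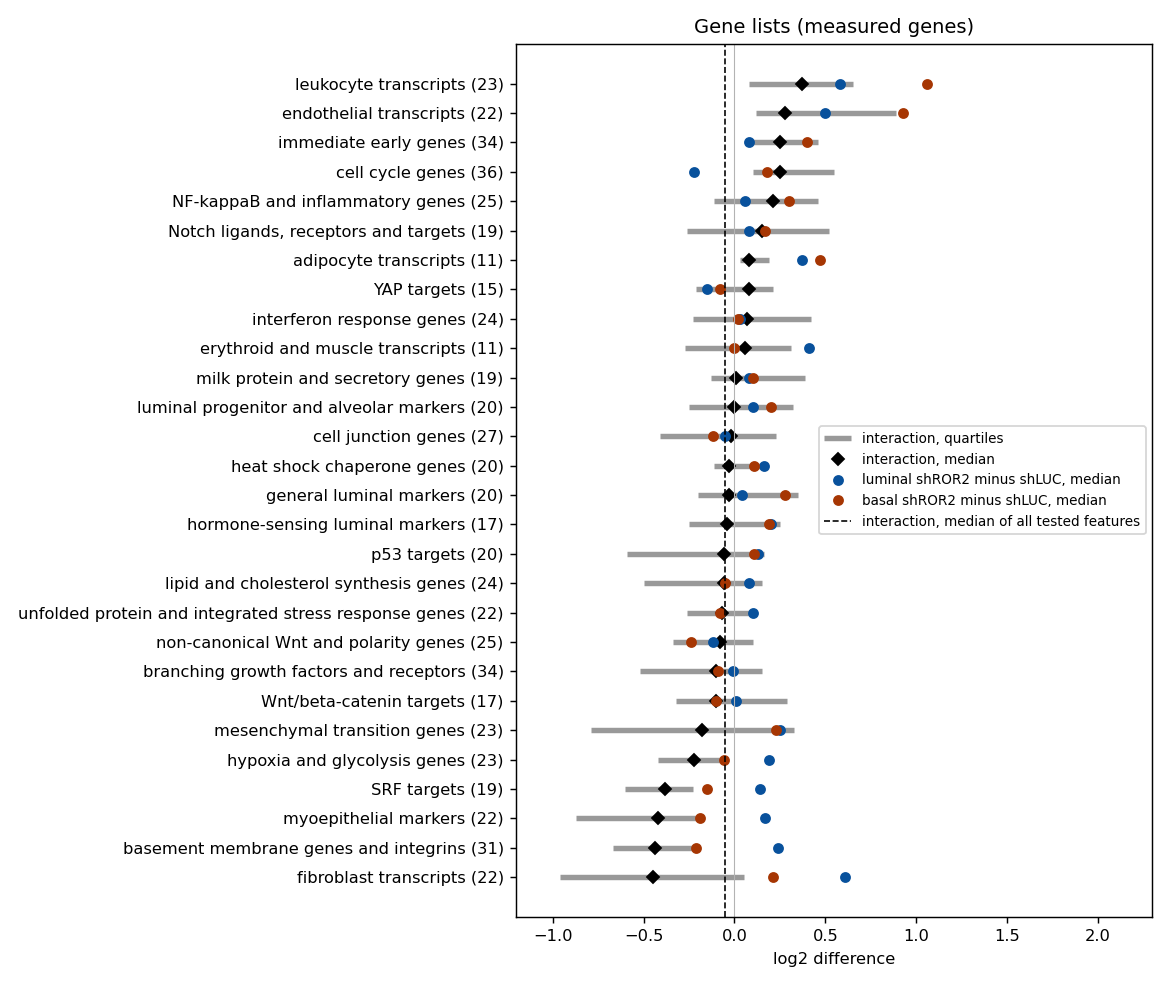
Median log2 difference of 28 gene lists, with the number of measured genes in brackets: black diamonds for the interaction with grey bars from its lower to its upper quartile over genes, blue and brown points for the luminal and basal shROR2 minus shLUC differences, and a dashed line at the median interaction of all features, -0.05. The fibroblast, basement membrane, myoepithelial and SRF lists lie lowest, at -0.45 to -0.38, and the leukocyte list highest, at 0.37. Some lists share members, among them the myoepithelial list with the SRF and basement membrane lists, so they are not separate results.

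Inflammatory genes of the NF-kappaB pathway had a median interaction of 0.21 (-0.01 and 0.55 within the slides), with 15 of 25 above 0 and 3 with an unadjusted p under 0.05. Tnf, a cytokine, rose in basal cells by 2.37 (adjusted p = 0.0436) and had an interaction of 1.80 ± 0.62 (0.511), with 2.33 and 0.76 within the slides. Only 1 basal shLUC array was well above background for Tnf, so these sizes rest on controls near background. Cxcl1, a chemokine, had 0.62 ± 0.20 (0.478). Interferon response genes had a median of 0.07, with 14 of 24 above 0 and 3 with an unadjusted p under 0.05, among them the antiviral Rsad2 at 1.22 ± 0.41 (0.5).

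Jag1 and Nrarp, of the Notch pathway, differed in opposite directions. Jag1, a Notch ligand of basal cells, lay at 0.13, 0.74 and 0.62 with shLUC and 0.68 and 0.72 with shROR2 in luminal cells, and 5.18, 5.22 and 5.06 with shLUC and 4.27, 4.12 and 4.24 with shROR2 in basal cells. It fell in basal cells by 0.94 on the log2 scale (adjusted p = 0.0385), and its interaction was -1.15 ± 0.24 (0.266). Nrarp, a target and feedback inhibitor of Notch, rose in basal cells by 1.92 (0.0183), stood 0.49 higher in luminal cells, and had an interaction of 1.43 ± 0.38 (0.386). The 19 Notch genes had a median of 0.15, with 11 above 0 and 8 below, and 1 in each direction with an unadjusted p under 0.05.

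The list for the pathway of Ror2 had a median interaction near 0. Of 25 genes of non-canonical Wnt signalling and polarity 15 lay below 0 and 10 above, 1 in each direction with an unadjusted p under 0.05. The median was -0.08, from -0.24 in basal and -0.12 in luminal cells, and members ran from -0.70 to 1.08. The hairpin difference was below 0 for 22 members in basal and 19 in luminal cells. Over all named genes its median was -0.07 in basal and 0.02 in luminal cells. The share of all genes below 0 in a single layer was not counted, so the counts of this list have no background. Wnt5a, the ligand of Ror2, was at 4.45, 4.29 and 4.37 with shLUC and 4.14 and 4.12 with shROR2 in luminal cells, and 4.29, 4.46 and 4.35 with shLUC and 4.10, 3.85 and 4.26 with shROR2 in basal cells. Every shROR2 array was below every control of its own layer, and neither difference passed the test. The interaction of Wnt5a was -0.05 (95% confidence interval -0.48 to 0.37), at or above 0 in 3 alternative settings. Wnt4, a ligand of hormone-sensing luminal cells, had -0.19 (-0.92 to 0.54), reaching 0 without luminal shROR2 replicate 2.

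Ryk, another Wnt receptor, was well above background on 2 luminal shLUC arrays and on neither luminal shROR2 array, at least 1.39-fold lower there (interaction adjusted p = 0.516). Ror1, the closest relative of Ror2, was well above background on both luminal shROR2 arrays and on no luminal control, at least 1.52-fold higher (0.671). Daam1, a formin of the polarity pathway, had -0.54 ± 0.21 (0.556), and Ptk7, a polarity co-receptor, had -0.37 ± 0.17 (0.607). The 17 Wnt/beta-catenin targets had a median of -0.10, 11 of them below 0 and 1 with an unadjusted p under 0.05.

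The medians of the luminal and secretory lists lay near 0. General luminal markers had a median interaction of -0.03 (11 of 20 below 0), hormone-sensing markers -0.04 (10 of 17), progenitor and alveolar markers 0 (10 of 20) and milk protein and secretory genes 0.01 (9 of 19). Their genes with an unadjusted p under 0.05 were 2, 2, 3 and 3. The general luminal markers had a median difference of 0.28 in basal and 0.04 in luminal cells, and their summed signal was 104 to 105 in basal shLUC and 118 to 144 in basal shROR2, 557 to 579 in luminal shLUC and 588 to 630 in luminal shROR2. The part of luminal cells in the basal sort was not tested. Krt8 and Krt18, the keratins of luminal cells, had interactions of -0.11 (95% confidence interval -0.54 to 0.32) and 0.30 (-0.12 to 0.72), and that of Krt8 reached 0.01 without basal shROR2 replicate 3. Cldn4, a claudin of tight junctions, had 0.80 ± 0.32 (adjusted p = 0.558), and the prolactin receptor gene Prlr 1.11 ± 0.38 (0.511), with further probes at 0.25 and 0.45.

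Some genes stood higher with shROR2 by like amounts in both layers. Btg2, an antiproliferative gene, lay at 2.05, 2.23 and 2.16 with shLUC and 3.21 and 2.87 with shROR2 in luminal cells, and 1.13, 1.00 and 1.02 with shLUC and 2.21, 2.08 and 2.11 with shROR2 in basal cells. The groups stood apart in both layers, by 1.08 in basal (adjusted p = 0.0113) and 0.89 in luminal cells (0.157), and the interaction was 0.19 (95% confidence interval -0.22 to 0.60). Lalba, the milk protein alpha-lactalbumin, stood 1.40 and 1.61 higher, for an interaction of -0.21 (-1.08 to 0.65). These intervals bound how far the layers could differ, and that of Lalba still allows a doubling.

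**Figure D4:**
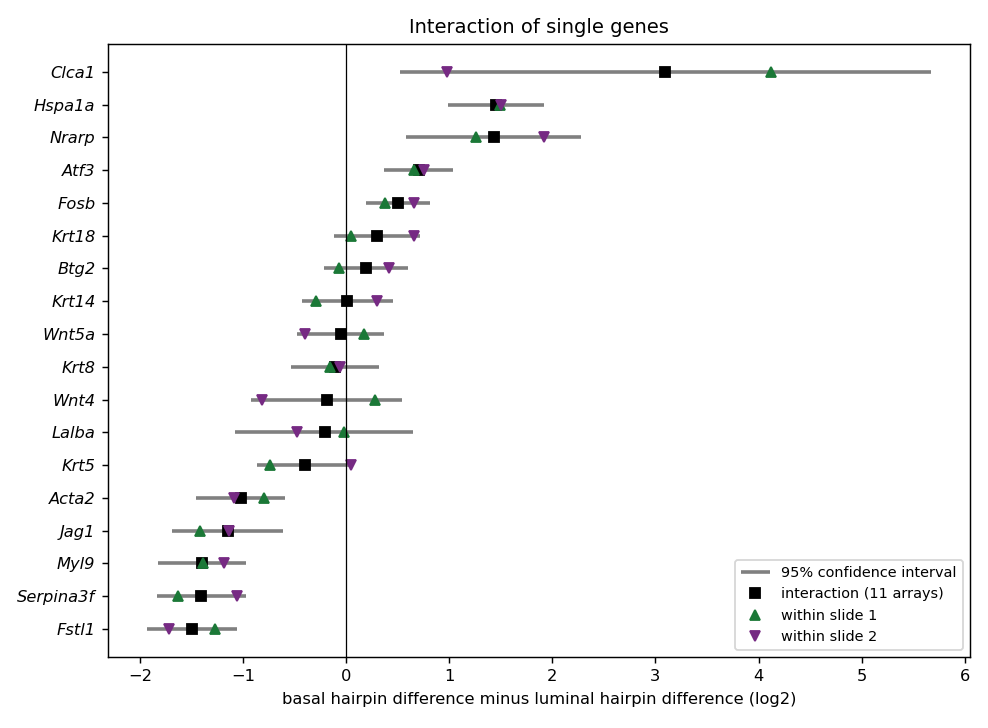
Interaction (horizontal axis, log2) of 18 genes bright in every group: black squares with grey 95% confidence intervals from all 11 arrays, and triangles for the values within each slide, which rest on 1 or 2 arrays per group. The intervals of Krt14, Krt8, Wnt5a and Btg2 lie within 1 log2 unit of 0, while that of Clca1 runs from 0.52 to 5.67 and its slides lie at 4.12 and 0.98.

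Clca1, a secreted protein of mucosal surfaces, had the largest interaction of the genes plotted and one of the least certain. It lay at 3.40, 3.47 and 3.39 with shLUC and 5.40 and 5.34 with shROR2 in luminal cells, and -2.47, -0.16 and -3.99 with shLUC and 3.05, 2.72 and 2.73 with shROR2 in basal cells. The basal controls were spread over more than 3 log2 units while the other groups were tight, and only 2 of these controls were well above background. Its interaction was 3.09 ± 1.13 (adjusted p = 0.533).

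Of the 10 features with an adjusted p under 0.1, dim genes took most places, and 3 of them, Optc, Nkain3 and Ecel1, are named after their values were seen. Optc, a proteoglycan called opticin, had the smallest p of all. It was at background on all luminal arrays, lay at -2.77, -2.01 and -2.44 with shLUC and -5.29, -5.29 and -5.23 with shROR2 in basal cells, and was at least 1.78-fold lower there (interaction adjusted p = 0.0563). Nkain3, which interacts with the sodium pump, was likewise at least 2.13-fold lower in basal shROR2 and at background in luminal cells (0.0934).

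Ecel1, a peptidase, was at background in luminal cells and lay at 1.01, 0.90 and 1.17 with shLUC and 0.30, 0.00 and -0.49 with shROR2 in basal cells (0.0934). For Optc and Nkain3 the luminal arrays hold no measured level, so the interaction there compares a basal difference with background. The same holds for Robo2, a guidance receptor, at least 1.77-fold lower in basal shROR2 (0.451). Fas, Ajuba, Erg, P4ha1, Cdh3 and Lgr5, named by the rule for gene lists, were also at background on every luminal array, with adjusted p from 0.227 to 0.685.

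The remaining lists showed smaller or mixed values, with none of their genes called. Of all 14069 named genes 8271 lay below 0, so a count near that share is no result about a list. Hypoxia and glycolysis genes had a median interaction of -0.22 (-0.45 and 0.08 within the slides), with 18 of 23 below 0 and 4 with an unadjusted p under 0.05, among them the glucose transporter Slc2a1 at -0.50 ± 0.15 (adjusted p = 0.437). Mesenchymal transition genes had -0.18 (13 of 23 below 0), branching growth factors and receptors -0.10 (19 of 34), lipid and cholesterol synthesis genes -0.06 (14 of 24) and p53 targets -0.06 (11 of 20). The median was -0.07 for genes of the unfolded protein and integrated stress responses (13 of 22 below 0) and -0.02 for cell junction genes (14 of 27). Of the latter, the desmosomal Dsp had -0.76 ± 0.20 (0.381), and a further probe of it gave -0.38. YAP targets had 0.08 (8 of 15 above 0), with the receptor tyrosine kinase gene Axl at -1.07 ± 0.27 (0.373), and erythroid and muscle transcripts 0.06 (6 of 11 above 0).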

How the data were processed

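RNA of 11 samples in 4 groups was measured on 1-colour Agilent mouse arrays. Per the file headers, the deposited scanner intensity was background-subtracted and detrended within arrays by Agilent Feature Extraction 11.0.1.1. The sources used here do not say how the authors made the deposited intensity table of the series. Its columns have medians of 88.792 to 89.333 and are not centred. On the log2 scale it correlated with each array's raw signal at 0.996 to 0.998.

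The processed signal was divided by its 75th percentile on the array (112.3 to 131.4) and put on the log2 scale, with spots of a probe averaged. Probes had to be well above background on at least 3 arrays (33630 of 55681 did). Names came from RefSeq accessions (26582 probes named, 29099 not). The probe of highest mean stood for a gene, leaving 29430 features, 14069 of them named genes. All arrays entered a limma 3.58.1 fit (lmFit, eBayes, R 4.3.3) with 4 group means, and the interaction was tested 2-sided with Benjamini-Hochberg adjustment, called under 0.05. A bright feature was well above background on at least 1 array of every group. Fits were tested on simulated data. Figures were drawn with matplotlib 3.10.9.

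Named were 10 bright genes of smallest p in each direction, since none was called, up to 3 genes of smallest p of each of 28 lists, and 20 listed genes. A few genes that this rule picks are not reported here. The members, lists and genes were chosen with earlier results of these data known. Lists have no test and are described by counts and medians. Alternatives were median scaling, quantile normalization, normexp background (offset 50, on median signals), the authors' table, no or a stricter filter (8 arrays), the mean of probes, slide or replicate blocks, array weights, variance trend and robust fits, and each array left out. Normexp used median signals because the scanner output holds no mean signal column. With 2 or 3 arrays per group, their number limits the precision. If samples share an outgrowth, p-values measure a spread that is partly technical.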

Additional observations from a re-analysis of the deposited data

How the results depend on the processing

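The count of called interactions was 0 in the main analysis. It was 1 with median scaling, 2 with quantile normalization, 7 with normexp background, 7 with the authors' table, 23 with trend and robust variances and 22 with the trend alone, a setting chosen after seeing the data. It was 0 with no filter, the stricter filter, the mean of probes, the slide as a block, array weights and robust variances alone, and 0 to 8 with 1 array left out. Myl9 and Mxd1 were each called in 4 settings and Hspa1a in 3. The 20 leading genes kept their sign in all 24 settings, and 9 of them were called in at least 1. These settings reuse the arrays that ranked the genes. Replicate numbers shared across groups did not pair samples (r of deviations -0.07 to 0.04 over 15 pairs). A replicate block also called 0, with 2288 features under an unadjusted 0.05 and a smallest adjusted p of 0.243.

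The Ror2 interaction was -0.05 with normexp background and -0.12 in the authors' table. Genes near 0 changed sign: Wnt5a to 0 with median scaling and 0.01 with quantile normalization, and Krt14 to 0 with quantile normalization, -0.07 with normexp background and -0.04 in the authors' table. With 1 array left out, Krt14 ranged from -0.22 to 0.24, Wnt5a from -0.15 to 0.06, Wnt4 from -0.44 to 0 and Krt8 from -0.18 to 0.01. The cause was not tested. Of the 105 genes compared, 99 had the same sign on both slides, as had 18 of 28 list medians. Most of these genes were picked by small p in the same arrays, so their count is no separate support. Low signal limits Ror2 and the genes at background, whose interactions have no measured size.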
